A study of Mus musculus with 32 samples.

Results

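The change from 3 to 12 months of age in male mice was examined in 7 of the 32 libraries of the series, 3 from 3-month-old and 4 from 12-month-old males, chosen by the age and sex in their labels. All were Chat-Cre;RiboTag mice, in which Cre made under the choline acetyltransferase (Chat) promoter switches on a hemagglutinin-tagged ribosomal protein, HA-Rpl22. Ribosomes carrying the tag were immunoprecipitated from the spinal cord, and the RNA bound to them was sequenced, so each value is a count of ribosome-associated RNA. The study compared males of 3, 12, 18 and 24 months and females of 3, 12 and 18 months, to follow the translatome of motor neurons through aging. The mice were hemizygous for Chat-Cre and were kept on a mixed genetic background, and no other genotype or treatment separates the groups. The Chat promoter is active in every cholinergic neuron of the cord, including preganglionic visceral neurons and partition cells, so the tagged ribosomes were not from motor neurons alone. RNA of other cells that stays bound to the beads is counted as well. Because the samples are bulk precipitates, fewer cells of a type and less RNA per cell cannot be told apart.

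Motor neurons sit in the ventral horn and send their axons to skeletal muscle. They make acetylcholine with Chat, load it into vesicles with the transporter Slc18a3, and recover choline with Slc5a7. Their firing is set by glutamate, GABA and glycine from interneurons and by serotonin from the brainstem. Because a single cell body serves a very long axon, these neurons depend on heavy protein synthesis, mitochondrial energy supply, axonal transport and removal of damaged proteins by the proteasome and lysosome.

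Total counts were between 23288612 and 27359621 at 3 months and between 14593523 and 30959661 at 12 months, where replicate 3 had the lowest. Replicate 1 of the 12-month males stood apart from the other 6 libraries. Its score on the first principal component, which held 59.4% of the variance of the 7 libraries, was 56.4, against -19.2 to -3.13 in the others. Genes with transcripts of at most 796 bases exceeded those of at least 2489 bases by 0.38 on the log2 scale in it. In the other 6 libraries the value was -0.10 to 0.09. This scale is relative to the mean of the 3-month males, which therefore lie around 0 by construction. It also carried more RNA of several other cell types: the summed normalized counts of 16 microglial markers were 2570.4 in it, 1034 to 1240 in the other 12-month males and 728 to 800.3 at 3 months. The part that RNA of other cells had in the differences below was not tested. Where leaving this library out turned the direction of a male list or gene described below, or moved a gene across an unadjusted p of 0.05, the value without it is given. Chat itself was 1359.9, 588 and 1115 normalized counts at 3 months and 146, 668, 764 and 986 at 12 months, and Slc18a3 was 16588, 11956 and 16963 normalized counts at 3 months and 14466, 14490.4, 11926 and 16223 at 12 months. The 9 cholinergic genes summed to 48957 to 63657 at 3 months and 52188 to 64247 at 12 months, so the labelled cell type was present in every library. The log2 fold change of Chat from 3 to 12 months was -0.67 ± 0.66, and -0.34 ± 0.67 without replicate 1 (nominal p over 0.05 in both).

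No gene passed the test: of 17481 genes averaging at least 5 counts, 0 were called by the quasi-likelihood test of edgeR, Benjamini-Hochberg adjusted, at an adjusted p under 0.05. The DESeq2 Wald test called 6, and limma voom with sample quality weights called 319. At an unadjusted p under 0.05, edgeR gave 1089 genes (6.23% of those tested), 604 of them higher at 12 months (3.46%) and 485 lower (2.77%), and these shares are the background for the counts below. Normalized counts of the 2 ages did not overlap for 753 genes higher (4.31%) and 739 lower (4.23%) at 12 months. Without replicate 1 of the 12-month males, 329 genes were higher (1.88%) and 300 lower (1.72%) at an unadjusted p under 0.05. Of all genes tested, 1 (0.00572%) then passed the adjusted test. Leaving out replicate 3 of the 3-month males took the total at an unadjusted p under 0.05 from 1089 to 624. Throughout, ± after a log2 fold change is the standard error of the fit, and nominal p is edgeR's two-sided p before adjustment. Every male gene named below had an adjusted p of at least 0.596 by edgeR, so differences are given as measured and none is a call.

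The 12 genes with the smallest p among those higher at 12 months, averaging at least 50 counts and without overlap between ages, had log2 fold changes of 0.33 to 1.38. None passed the adjusted test (adjusted p between 0.596 and 0.746, edgeR). Each was higher in 4 of 4 libraries at 12 months because the genes were chosen for that. Leading them was Pcdhb3, a clustered protocadherin, one of the adhesion proteins whose combinations give neurons a surface identity. It measured 144, 149.9 and 115 normalized counts at 3 months and 196, 268, 222 and 265 at 12 months, so the lowest 12-month library lay above the highest 3-month one (log2 fold change 0.80 ± 0.17, adjusted p = 0.596). Pdyn (chromosome 2, 129686565 to 129699844, GRCm38), the precursor of the opioid peptide dynorphin, had the largest change of the 12. Its values were 60.4, 74.03 and 56.03 normalized counts at 3 months and 144, 245, 142 and 127 at 12 months, with replicate 2 above the rest (log2 fold change 1.38 ± 0.38, adjusted p = 0.678). Ppp1r1b (chromosome 11, 98348404 to 98357796) encodes DARPP-32, a phosphatase inhibitor controlled by protein kinase A. It was at 228, 355 and 226 normalized counts at 3 months and 654, 524, 450.3 and 540.1 at 12 months (log2 fold change 1.01 ± 0.28, adjusted p = 0.737).

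Stat6, the transcription factor of interleukin-4 signaling, was 228, 139.8 and 158 normalized counts at 3 months and 251, 326, 274 and 312 at 12 months (log2 fold change 0.73 ± 0.19). It overlaps Nab2 on the opposite strand, and reads of the pair cannot be told apart unless counting used strand, which is not stated. Ercc5, the endonuclease XPG of nucleotide excision repair, was 215, 232 and 216 normalized counts at 3 months and 405, 319, 276 and 299 at 12 months, again without overlap. Rpp25, a subunit of ribonuclease P, had a log2 fold change of 0.82 ± 0.22. Wdr12, a ribosome biogenesis factor that overlaps Carf on the other strand, had one of 0.33 ± 0.09. Adamtsl5, a matrix protein that binds fibrillin, was 294, 236 and 232 normalized counts at 3 months and 468, 474, 402 and 377 at 12 months (log2 fold change 0.76 ± 0.18). The lysosomal membrane protein gene Laptm4a was 4593, 4554 and 4677 normalized counts at 3 months and 7632, 5375, 5609 and 5718 at 12 months, where the 3-month libraries spanned only a narrow range and replicate 1 was highest. Adprh, an ADP-ribosylarginine hydrolase, and Ogfod3, which overlaps Hexdc, had log2 fold changes of 0.40 ± 0.11 and 0.63 ± 0.18, of which 0.25 ± 0.09 and 0.42 ± 0.16 were left without replicate 1.

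**Figure D1:**
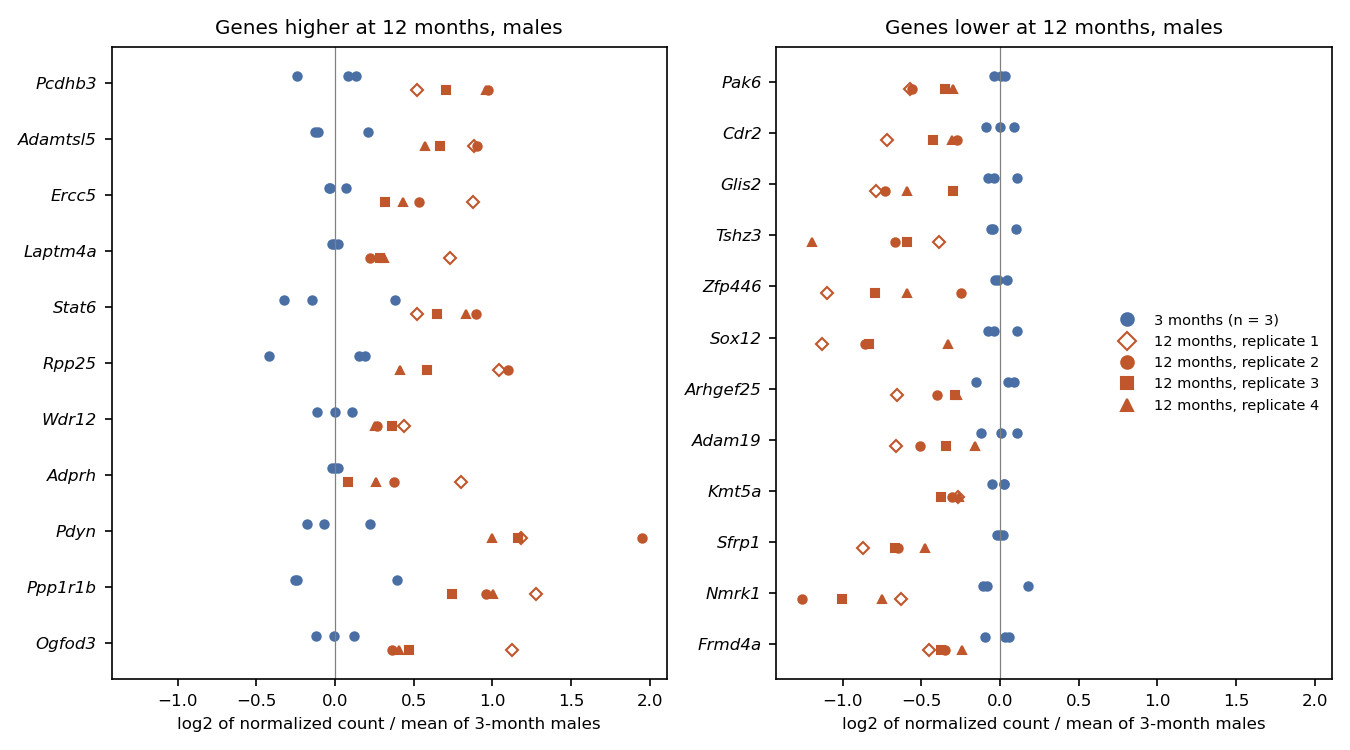
Each gene's normalized count in each male library, as log2 of its ratio to the mean of the 3-month males, for the named genes with the smallest p among those higher (left) and lower (right) at 12 months. Circles on the upper line of each gene are 3-month libraries and the symbols below are the 4 12-month libraries (replicate 1 open), which lie on 1 side of all 3-month values because the genes were chosen for that.

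Among the genes lower at 12 months the changes were smaller, between -0.89 and -0.30 on the log2 scale over 12 genes chosen in the same way. Their adjusted p was between 0.596 and 0.646 by edgeR, and by that choice each was lower in 4 of 4 libraries. Pak6, a p21-activated kinase of neurons, was 1093, 1043 and 1074 normalized counts at 3 months and 720.3, 726, 841 and 871 at 12 months (log2 fold change -0.44 ± 0.10, adjusted p = 0.596). The 3-month values lay close together, and the 12-month values were all below them. Cdr2, known as the antigen of paraneoplastic cerebellar degeneration, was 3052, 3457 and 3251 normalized counts at 3 months and 1979, 2694, 2420.3 and 2631 at 12 months (log2 fold change -0.42 ± 0.10, adjusted p = 0.596). Tshz3, a teashirt zinc finger factor, was 226, 249.5 and 223 normalized counts at 3 months and 178, 147, 155 and 102 at 12 months (log2 fold change -0.68 ± 0.17, adjusted p = 0.607). Sox12, a SoxC factor, was 342, 390.3 and 352 normalized counts at 3 months and 165, 199.7, 203 and 287 at 12 months (log2 fold change -0.76 ± 0.20, adjusted p = 0.607). The zinc finger genes Glis2 and Zfp446 had log2 fold changes of -0.60 ± 0.14 and -0.64 ± 0.16, and Glis2 overlaps Pam16 on the other strand.

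Of the remaining lower genes, Sfrp1 (chromosome 8, 23411502 to 23449632, GRCm38) encodes a secreted inhibitor of Wnt ligands. It was 421, 411 and 416 normalized counts at 3 months and 228, 265, 262 and 299 at 12 months, a narrow 3-month range lying well above all 12-month libraries (log2 fold change -0.66 ± 0.18, adjusted p = 0.645). Nmrk1, a kinase of nicotinamide riboside in the pathway to NAD, had the largest of the lower changes (log2 fold change -0.89 ± 0.24). It was 125, 153 and 128 normalized counts at 3 months and 87.2, 56.5, 67.5 and 80.2 at 12 months. Arhgef25, a guanine nucleotide exchange factor, Adam19, a membrane metalloprotease, Kmt5a, the histone H4 lysine methyltransferase, and Frmd4a, a scaffold of cell polarity, had log2 fold changes of -0.40 ± 0.10, -0.41 ± 0.11, -0.30 ± 0.08 and -0.35 ± 0.10. Kmt5a varied little within either age, at 1922, 1916 and 1820.2 normalized counts at 3 months and 1566, 1528, 1455 and 1573 at 12 months. All 12 higher and all 12 lower genes also had an unadjusted p under 0.05 without replicate 1. They were chosen by p and lack of overlap with the remaining libraries included, so this was largely fixed by the choice.

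Females gave values from other libraries, 4 of 3 months and 5 of 12 months, none of them shared with the males. Both sexes were fitted together and share each gene's estimate of spread, so their p are not independent. Of the 604 genes higher in males at an unadjusted p under 0.05, 74 were also higher in females, which is 12.25% of the male genes and 12.4% of the 597 female ones, against 3.42% of all genes tested. Of the 485 lower in males, 65 were lower in females, 13.4% of the male and 14.64% of the 444 female genes, against 2.54% of all genes. In the opposite direction, 1 of the higher and 2 of the lower male genes had an unadjusted p under 0.05 in females. The direction in females was the same for 86.6% of the higher and 81.4% of the lower male genes, where 49.6% and 50.4% of all genes had that direction. Without replicate 1 the genes shared were 30 of 329 (9.12%) and 31 of 300 (10.33%), and the direction was the same for 57.4% and 59.7%. The part of transcript length and of the shared estimate of spread in these shares was not tested. Among the 24 named genes, 12 of 12 higher and 10 of 12 lower ones had the same direction in females, and 5 and 4 of them an unadjusted p under 0.05. The 5 were Pcdhb3, Adamtsl5, Stat6, Rpp25 and Ppp1r1b, and the 4 were Tshz3, Sox12, Adam19 and Sfrp1. Pcdhb3 went from 196 ± 44.6 to 298 ± 40.8 normalized counts (mean ± SD) in females (log2 fold change 0.60 ± 0.15, nominal p under 0.05). Ppp1r1b went from 447 ± 165 to 849.9 ± 130.2 (log2 fold change 0.92 ± 0.25, nominal p under 0.05), and Sfrp1 from 402 ± 88.02 to 286 ± 51.3 (log2 fold change -0.49 ± 0.16, nominal p under 0.05). Their adjusted p in females was 0.492, 0.499 and 0.593 by edgeR, and edgeR called 0 genes in females (1041, or 5.96% of those tested, at an unadjusted p under 0.05, 8 by the DESeq2 Wald test and 2 by limma voom). Without replicates 1 and 2 of the 12-month females in turn, 1662 and 596 had that p.

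Among the genes with an unadjusted p under 0.05 in both sexes, the ages did not overlap in either sex for 14 higher and 13 lower ones. These genes were chosen by their p in both sexes, so the counts are a description, and nothing is read from the 1.22% and 1.53% of all genes, higher and lower, that did not overlap in females. The 3 higher ones given here were named after their values were seen. Eif3d, a subunit of the translation initiation factor eIF3, was 1731, 1742 and 1555 normalized counts at 3 months and 2984, 1953, 1994 and 2016 at 12 months (log2 fold change 0.42 ± 0.13, and 0.25 ± 0.11 without replicate 1). Sil1, the exchange factor of the endoplasmic reticulum chaperone BiP, was 498, 533 and 502 normalized counts at 3 months and 805, 689, 546 and 572 at 12 months (log2 fold changes 0.35 ± 0.12 and 0.24 ± 0.11). Tkt, the transketolase of the pentose phosphate pathway, was 4075, 3935 and 3635 normalized counts at 3 months and 8749, 4803, 4345 and 4614 at 12 months (log2 fold changes 0.54 ± 0.17 and 0.24 ± 0.13). In each of them replicate 1 was highest and the other 12-month libraries lay above the 3-month range, and without replicate 1 Tkt had a nominal p over 0.05. Their female log2 fold changes were 0.35 ± 0.11, 0.29 ± 0.10 and 0.34 ± 0.15. Sox12, Adam19, Htr1b and Ppp1r1c were among the 13 lower ones.

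The serotonin receptors, through which brainstem fibers raise or restrain motor neuron excitability, included 3 higher and 8 lower of 11 tested (median log2 fold change -0.15, against 0.00 over all genes). Of these 2 were lower at an unadjusted p under 0.05, next to 2.77% of all genes. Htr1b (chromosome 9, 81628291 to 81633828, GRCm38), an inhibitory receptor often placed on nerve terminals, was 183, 152 and 188 normalized counts at 3 months and 57.01, 119, 114 and 110.00 at 12 months. No 12-month library reached the 3-month range, and replicate 1 was lowest (log2 fold change -0.80 ± 0.22, nominal p under 0.05, and -0.60 ± 0.21, nominal p under 0.05, without it). In females it went from 143 ± 18.3 to 90.3 ± 15.6 (log2 fold change -0.66 ± 0.20, nominal p under 0.05). Htr7, a receptor that raises cyclic AMP, was 1157, 1107 and 1119 normalized counts at 3 months and 485, 926, 959.7 and 969 at 12 months, and its log2 fold change of -0.43 ± 0.20 became -0.24 ± 0.19 (nominal p over 0.05) without replicate 1. Ppp1r1c, a relative of Ppp1r1b, differed in the opposite direction to it. It was 152, 177 and 147 normalized counts at 3 months and 96.7, 105, 99.9 and 102 at 12 months, again without overlap (log2 fold change -0.65 ± 0.22, nominal p under 0.05), and in females its log2 fold change was -0.65 ± 0.20 (nominal p under 0.05).

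Most genes of antigen presentation on MHC class I were higher at 12 months with and without replicate 1, although none passed the test. Peptides cut by the immunoproteasome, with subunits Psmb8 and Psmb9, are pumped into the endoplasmic reticulum by Tap1 and loaded on class I molecules. Because Tap1 and Psmb9 start from a common stretch of DNA and were higher together, the windows around the start sites of Tap1, Psmb8 and H2-M3 are shown (250 bases before to 50 after each start, RefSeq, GRCm38.p6). The starts of Tap1 and Psmb9 lie on opposite strands 226 bases apart, and their windows share 275 bases, so 1 window stands for both. Capitals mark matches on either strand to CCAAT (the CCAAT box), to the Sp1 motif GGGCGG (the GC box) or to the palindrome TTCNNNGAA bound by STAT factors (the STAT element). The core of the interferon-stimulated response element, 2 copies of GAAA with 2 bases between them, was searched for as well.
Tap1, chr17:34187306-34187605, plus strand: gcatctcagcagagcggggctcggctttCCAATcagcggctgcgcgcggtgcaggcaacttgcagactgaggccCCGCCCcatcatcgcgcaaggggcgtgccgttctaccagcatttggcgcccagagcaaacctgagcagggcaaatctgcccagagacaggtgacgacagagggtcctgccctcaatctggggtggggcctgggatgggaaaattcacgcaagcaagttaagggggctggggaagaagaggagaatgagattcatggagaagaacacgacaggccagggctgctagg
Psmb8, chr17:34197945-34198244, plus strand: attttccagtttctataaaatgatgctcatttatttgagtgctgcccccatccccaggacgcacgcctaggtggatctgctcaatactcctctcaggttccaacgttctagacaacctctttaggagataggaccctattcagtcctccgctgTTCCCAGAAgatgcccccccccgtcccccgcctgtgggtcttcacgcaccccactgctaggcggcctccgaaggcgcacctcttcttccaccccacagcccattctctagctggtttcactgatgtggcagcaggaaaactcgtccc
H2-M3, chr17:37269984-37270283, plus strand: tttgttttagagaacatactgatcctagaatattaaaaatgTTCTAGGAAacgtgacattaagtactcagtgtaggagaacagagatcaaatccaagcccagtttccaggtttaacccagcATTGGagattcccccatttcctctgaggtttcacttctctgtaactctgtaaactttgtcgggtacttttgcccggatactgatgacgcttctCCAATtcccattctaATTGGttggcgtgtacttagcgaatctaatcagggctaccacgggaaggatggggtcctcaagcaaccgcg
The Tap1 window held 1 CCAAT box and 1 GC box, the Psmb8 window 1 STAT element, and the H2-M3 window 1 STAT element and 3 CCAAT boxes. Among 32851 windows of that length, 37.4% held a CCAAT box, 35.7% a GC box, 8.3% a STAT element and 3.44% the interferon core. None of the 3 windows held the interferon core, which says only that these letters are not there.

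Of 21 MHC class I presentation genes tested, 17 were higher at 12 months and 4 lower. Their median was 0.41 on the log2 scale (0.35 without replicate 1). At an unadjusted p under 0.05, 4 of them were higher, and 7 did not overlap between ages, next to 3.46% and 4.31% of all genes. Tap1 was 25.99, 20.1 and 22.2 normalized counts at 3 months and 51.8, 30.98, 37.99 and 60.4 at 12 months, with every 12-month library above the 3-month ones (log2 fold change 0.99 ± 0.29, nominal p under 0.05). Psmb8 was 15.3, 21.02 and 14.01 normalized counts at 3 months and 47.5, 31.7, 42.2 and 32.3 at 12 months, again with no overlap (log2 fold change 1.19 ± 0.52, nominal p under 0.05). Psmb9 was 11.5, 13.7 and 10.7 normalized counts at 3 months and 36.3, 12.4, 23.9 and 27.3 at 12 months, where replicate 2 lay within the 3-month range (log2 fold change 1.05 ± 0.53, nominal p over 0.05). It overlaps Tap1 in the annotation, so reads of the pair may have been shared. The class I molecules H2-M3 and H2-Q7 belong to a family of related sequences. H2-Q7 is a near-copy of other members, which makes its count less certain. H2-M3 was 179.6, 175 and 176 normalized counts at 3 months and 269, 238, 239 and 199 at 12 months (log2 fold change 0.42 ± 0.14, nominal p under 0.05), and H2-Q7 was 6.88, 12.8 and 17.3 normalized counts at 3 months and 32.8, 20.7, 23.9 and 33.1 at 12 months (log2 fold change 1.16 ± 0.53, nominal p under 0.05). H2-K1, a classical class I heavy chain, was 222, 217 and 241 normalized counts at 3 months and 419, 284, 325 and 397 at 12 months (log2 fold change 0.65 ± 0.35, nominal p over 0.05). All of these also occur in microglia, whose 16 markers summed to 728 to 800.3 counts at 3 months and 1034 to 2570.4 at 12 months, and the part of microglial RNA was not tested. In females 19 of 21 were higher (median 0.43), with Tap1 at 0.56 ± 0.25 (nominal p under 0.05) and Psmb8 at 1.24 ± 0.45 (nominal p under 0.05). Without replicate 1 the male count at an unadjusted p under 0.05 was 3, and Psmb8 and H2-Q7, at 1.07 ± 0.55 and 1.07 ± 0.57, had a nominal p over 0.05.

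**Figure D2:**
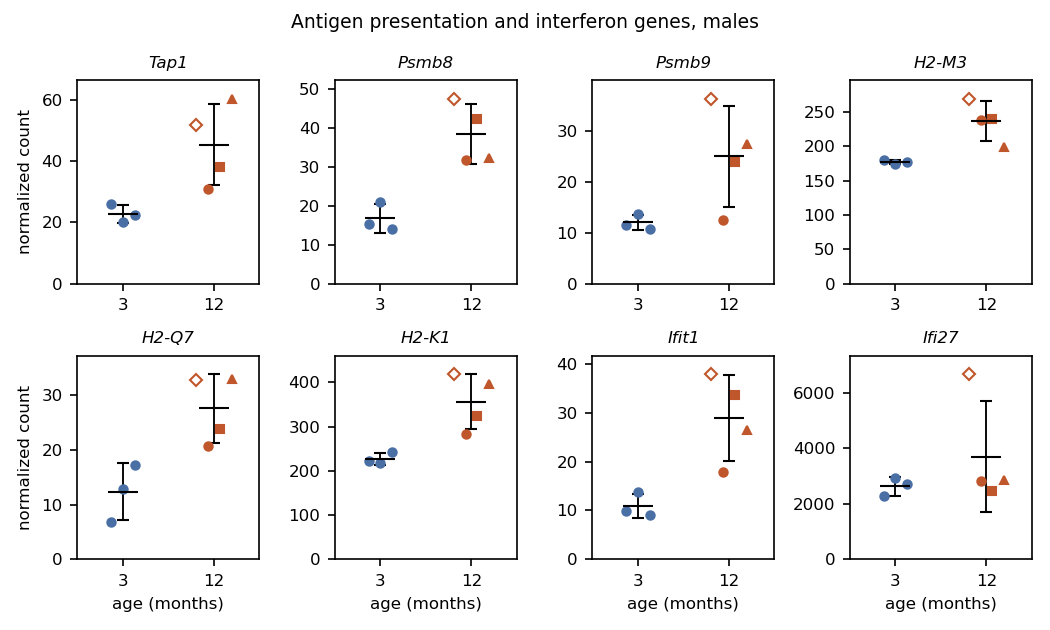
Normalized counts of 8 antigen presentation and interferon genes in the 3 3-month and 4 12-month male libraries, with the mean and SD of each group (replicate 1 of 12 months open). All but Psmb9 and Ifi27 are separated between ages, and for Ifi27 only replicate 1 is high.

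The interferon response list had 26 of 33 genes higher and a median of 0.45, which became 0.14 without replicate 1. Ifit1, an RNA-binding effector induced by type I interferon, was 9.94, 13.7 and 9.06 normalized counts at 3 months and 38, 17.9, 33.8 and 26.5 at 12 months (log2 fold change 1.40 ± 0.44, nominal p under 0.05). Ifi27 was 2271, 2942 and 2706 normalized counts at 3 months and 6691, 2813, 2457 and 2867 at 12 months, so its difference rested on replicate 1 (0.49 ± 0.23, and 0.04 ± 0.15 without it). Tlr2, a receptor for bacterial lipoproteins found on myeloid cells, was 12.99, 12.8 and 16.5 normalized counts at 3 months and 19, 42, 18.3 and 36.4 at 12 months (log2 fold change 1.05 ± 0.42, nominal p under 0.05) and in females had one of 1.24 ± 0.36 (nominal p under 0.05).

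Genes of protein synthesis, respiration and protein breakdown were higher as families, and by less without replicate 1. Of 83 cytosolic ribosomal protein genes, 82 were higher (median 0.49) and 21 had an unadjusted p under 0.05. Without replicate 1 the median was 0.13, with 79 still higher and 1 at that p. Their summed counts were 237703, 316000.0 and 256193 at 3 months and 611811, 298984, 303313 and 292451 at 12 months, and apart from replicate 1 they overlapped between ages. Rpl3, a protein of the large subunit, was 8376, 7851 and 8017 normalized counts at 3 months and 11962, 8493, 9674 and 9223 at 12 months (log2 fold change 0.28 ± 0.10, and 0.18 ± 0.08, nominal p under 0.05, without replicate 1). Rpl5, which carries 5S ribosomal RNA, was 3668, 4075 and 3678 normalized counts at 3 months and 7951, 4312, 5655 and 4334 at 12 months (log2 fold change 0.55 ± 0.19, and 0.33 ± 0.17, nominal p over 0.05, without replicate 1). Nuclear genes of the respiratory chain behaved alike, with 78 of 81 higher at a median of 0.38 (0.14 without replicate 1). The complex I subunit Ndufa9 was 4873, 4813 and 4571 normalized counts at 3 months and 9320.4, 5854, 4962 and 5634 at 12 months, without overlap (log2 fold change 0.44 ± 0.14, and 0.21 ± 0.10, nominal p under 0.05, without replicate 1). The 10 tested genes encoded in mitochondrial DNA pointed the other way, with 0 higher and 10 lower and a median of -0.37 (-0.69 without replicate 1). Their sums of 25485, 29946 and 44774 at 3 months and 44224, 23409, 19772 and 22929.8 at 12 months overlapped only through replicate 1, and none had an unadjusted p under 0.05. The proteasome list had 34 of 37 genes higher (median 0.35), 15 of them at an unadjusted p under 0.05 and 13 without overlap. Without replicate 1 its median was 0.14 and 0 genes had that p, although 33 were still higher. Psmc3, an ATPase of the proteasome cap, was 5709, 6064 and 5635 normalized counts at 3 months and 11710.4, 6577, 6543 and 6506 at 12 months, with replicate 1 far above and replicates 2 to 4 just above the 3-month range (log2 fold change 0.43 ± 0.15, and 0.18 ± 0.09, nominal p over 0.05, without replicate 1). With offsets that remove each library's trend with transcript length, the male medians of the ribosomal, nuclear respiratory and proteasome lists were 0.39, 0.29 and 0.31. Female medians of the ribosomal, nuclear respiratory and proteasome lists were 0.38, 0.36 and 0.22. Genes of short transcripts exceeded those of long ones by -0.05, 0.14, 0.15, -0.02 and 0.15 in the 12-month females and by -0.13, -0.08, -0.05 and 0.06 in the 3-month ones, on the same scale as above, and the part of transcript length in the female medians was not tested.

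Chaperones did not move together: 12 were higher and 14 lower of 26. Hspa8, the constitutive Hsc70, was 64436, 52533 and 56994 normalized counts at 3 months and 134692, 65460.4, 61360.3 and 64988 at 12 months, where only replicate 1 was far from the rest (log2 fold change 0.49 ± 0.20, and 0.14 ± 0.16 without it). Hspa1b, a heat-inducible Hsp70, was 560.3, 179 and 229 normalized counts at 3 months and 227, 224, 129 and 152 at 12 months, with the 3-month replicate 1 far above the others (log2 fold change -0.81 ± 0.30, nominal p under 0.05). Lysosome and autophagy genes had 17 higher and 14 lower of 31, with 2 higher and 0 lower at an unadjusted p under 0.05, among them Mcoln1, the lysosomal calcium channel, at 1104, 959 and 1026 normalized counts at 3 months and 1655, 1327, 1317 and 1306 at 12 months (log2 fold change 0.44 ± 0.14, nominal p under 0.05). The antioxidant list had 20 of 26 higher (median 0.18, 0.03 without replicate 1), and the metallothionein Mt2 was 236, 369 and 309 normalized counts at 3 months and 1717, 554, 303 and 366 at 12 months, high in replicate 1 (log2 fold change 1.27 ± 0.59, nominal p under 0.05, and 0.43 ± 0.55, nominal p over 0.05, without it). The unfolded protein response (18 of 28 higher, median 0.05), cholesterol synthesis (9 of 23 higher, -0.05), the circadian clock (12 of 20, 0.05), canonical histones (8 of 20, -0.05), Hox genes (14 of 33, -0.17) and genes of familial amyotrophic lateral sclerosis (12 of 28, -0.03) had medians between -0.17 and 0.05 and at most 1 gene in either direction at an unadjusted p under 0.05. Glucocorticoid-induced genes had 11 of 16 higher (median 0.34, 0.20 without replicate 1). Of the senescence and p53 list, 7 were higher and 11 lower (median -0.03), and 11 and 7 (median 0.03) without replicate 1. Cdkn2a, the locus of p16 and p19, was 19.1, 29.2 and 30.5 normalized counts at 3 months and 123, 60.6, 66.1 and 76.1 at 12 months, above the 3-month range in all 4 libraries (log2 fold change 1.63 ± 0.78, nominal p under 0.05, and 1.37 ± 0.83, nominal p over 0.05, without replicate 1).

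Genes that define motor neurons had list medians near 0. The cholinergic list had 5 higher and 4 lower (median 0.02) and the identity factors 10 and 7 (median 0.09), which without replicate 1 were 4 and 5 (-0.01) and 7 and 10 (-0.03). Isl2, a LIM factor of motor neurons, was 1190.2, 1334 and 1249 normalized counts at 3 months and 1020.1, 998, 946 and 1159 at 12 months, a small difference without overlap (log2 fold change -0.29 ± 0.11, nominal p under 0.05). Mnx1, known as Hb9, was 1695, 2203 and 1705 normalized counts at 3 months and 892, 1489, 1485 and 1896 at 12 months, with overlap (log2 fold change -0.37 ± 0.21, nominal p over 0.05). Markers of alpha motor neurons were higher in 4 and lower in 8 (median -0.11), and those of gamma motor neurons, which serve muscle spindles, in 1 and 10 (median -0.10), where none of the gamma markers had an unadjusted p under 0.05. The visceral motor and partition neuron markers had 5 higher and 3 lower (median 0.07), and the apparatus of muscarinic C-boutons 1 and 6 (median -0.16).

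Receptors, channels and the release machinery had few differences. Ionotropic glutamate receptors had a median of 0.02 over 18 genes, with 0 at an unadjusted p under 0.05, and acetylcholine receptors one of 0.06 over 12, also with 0. Of 7 metabotropic glutamate receptors, 5 were higher, with Grm5 at 433, 382 and 367 normalized counts at 3 months and 458, 554, 567 and 455 at 12 months (log2 fold change 0.37 ± 0.17, nominal p under 0.05). Of 21 GABA-A and glycine receptor subunits, 14 were higher, with Gabrb1 at 754, 678 and 718 normalized counts at 3 months and 1143, 1055, 910.4 and 752 at 12 months, where replicate 4 lay within the 3-month range (log2 fold change 0.43 ± 0.16, nominal p under 0.05). Sodium channels had 9 of 11 higher (median 0.13), yet Scn4b, the abundant beta subunit linked to resurgent current, was lower at 17294, 18017 and 17733 normalized counts at 3 months and 9979, 13840.5, 15512 and 16312 at 12 months (log2 fold change -0.35 ± 0.12, nominal p under 0.05, and -0.21 ± 0.11, nominal p over 0.05, without replicate 1). Potassium channels split evenly, 36 higher and 36 lower of 72 (37 and 35 without replicate 1), and the leak channel Kcnk9 was 13719.6, 11594 and 14153 normalized counts at 3 months and 8502, 9833, 11363 and 11289.6 at 12 months (log2 fold change -0.36 ± 0.16, nominal p under 0.05, and -0.28 ± 0.17, nominal p over 0.05, without replicate 1). Calcium channels had 10 higher and 12 lower of 22 (median -0.04), and 12 and 10 (median 0.03) without replicate 1. Among 33 genes of vesicle release, the fast-fusion regulator Cplx1 was lower, at 58475, 62009 and 63462 normalized counts at 3 months and 39562, 52890.2, 50427 and 55605 at 12 months (log2 fold change -0.31 ± 0.10, nominal p under 0.05). The vesicle SNARE Vamp1 was also lower (log2 fold change -0.25 ± 0.11), while the calcium sensor Syt1 was higher, at 1649.6, 1277 and 1423 normalized counts at 3 months and 1807, 2258, 2412 and 1878 at 12 months (log2 fold change 0.53 ± 0.20, nominal p under 0.05). The vesicle glycoprotein Sv2a had a log2 fold change of 0.38 ± 0.15. Without replicate 1 these 4 were -0.21 ± 0.09, -0.17 ± 0.12, 0.59 ± 0.21 and 0.48 ± 0.15.

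Axonal structure genes had 18 of 24 higher (median 0.16, 0.09 without replicate 1), and the neuronal tubulin Tubb3 was 72736, 71883 and 71768 normalized counts at 3 months and 152090.0, 74601, 68948 and 81046 at 12 months, high only in replicate 1 (log2 fold change 0.38 ± 0.19, nominal p under 0.05, and 0.06 ± 0.14, nominal p over 0.05, without it). Kinesins had 14 higher and 22 lower (median -0.10). The dynein and dynactin genes had 16 higher and 7 lower (median 0.05), and 10 and 13 (median -0.02) without replicate 1. The retrograde motor subunits Dync1li2, at 10505, 11372 and 10811 normalized counts at 3 months and 6458, 9398, 8986 and 9973 at 12 months, and Dynlt3, at 9506, 8965 and 10599 normalized counts at 3 months and 5819.8, 8138, 7679 and 8496 at 12 months, were lower without overlap (log2 fold changes -0.32 ± 0.12 and -0.36 ± 0.17), which became -0.20 ± 0.11 and -0.25 ± 0.18 without replicate 1 (nominal p under 0.05 with it and over 0.05 without it).

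Markers of inhibitory spinal interneurons were higher in 2 of the 4 older libraries. All 9 inhibitory markers tested had positive log2 fold changes (median 0.54, 0.60 without replicate 1), 1 of them at an unadjusted p under 0.05 and 4 without replicate 1. Their sums were 5410.5, 4281 and 4577 at 3 months and 3286, 9021, 8897 and 5264 at 12 months, so replicates 2 and 3 were high and replicate 1 was the lowest of all 7 libraries. Gad2 and Gad1 make GABA. Gad2 was 417, 309 and 361 normalized counts at 3 months and 390.4, 733, 674 and 411 at 12 months (log2 fold change 0.61 ± 0.25, and 0.74 ± 0.26, nominal p under 0.05, without replicate 1), and Gad1 was 1491, 1349.9 and 1254 normalized counts at 3 months and 898, 2481, 2239 and 1466 at 12 months (log2 fold changes 0.38 ± 0.25 and 0.60 ± 0.23). Slc32a1 and Slc6a5, the vesicular inhibitory transporter and the neuronal glycine transporter, showed the same split. Slc32a1 was 553, 398 and 486 normalized counts at 3 months and 572, 1157, 965 and 604 at 12 months (log2 fold change 0.78 ± 0.41, and 0.93 ± 0.43, nominal p under 0.05, without replicate 1), and Slc6a5 was 1102, 864 and 897 normalized counts at 3 months and 325, 2556, 2434 and 1025 at 12 months (log2 fold change 0.73 ± 0.47, and 1.07 ± 0.40, nominal p under 0.05, without replicate 1). Excitatory interneuron markers had 9 of 10 higher (median 0.36, 0.26 without replicate 1), and their summed counts did not share this split. Their sums were 2931, 3154 and 2806 at 3 months and 4427, 4263, 3757 and 3117 at 12 months. Here replicate 1 was highest and replicate 4 lay within the 3-month range. The genes Slc17a6 and Slc17a8 differed from the sums, with replicate 1 the lowest 12-month library and replicates 2 and 3 the highest. The vesicular glutamate transporter Slc17a6 was 1476, 1303 and 1309 normalized counts at 3 months and 1099, 1836, 2066 and 1642 at 12 months (log2 fold change 0.28 ± 0.18, and 0.44 ± 0.17, nominal p under 0.05, without replicate 1), and Slc17a8 was 3.06, 4.57 and 5.77 normalized counts at 3 months and 5.18, 21.3, 15.5 and 9.92 at 12 months (log2 fold change 1.52 ± 0.47, nominal p under 0.05). In females 0 of 9 inhibitory and 3 of 10 excitatory markers were higher, with medians of -0.25 and -0.17.

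Neuropeptide precursors were higher in 23 of 26 genes (median 0.58, 0.53 without replicate 1), 2 of them, Pdyn and Npy, at an unadjusted p under 0.05. Calca, which encodes calcitonin gene-related peptide of motor and sensory neurons, was 8655, 11615 and 9735 normalized counts at 3 months and 36738, 26516, 7784 and 9278 at 12 months, high in replicates 1 and 2 only (log2 fold change 1.01 ± 0.68, nominal p over 0.05). Ucn, the precursor of urocortin, was 138, 184 and 149.96 normalized counts at 3 months and 1533, 945, 166 and 249.8 at 12 months, again high in these 2 (log2 fold change 2.21 ± 1.08, nominal p over 0.05). The same 2 libraries were high in genes known from the response of motor neurons to axotomy. Atf3, a stress transcription factor switched on by axon injury, was 29.05, 19.2 and 32.96 normalized counts at 3 months and 101, 207, 37.99 and 34.7 at 12 months (log2 fold change 1.83 ± 0.87, nominal p under 0.05, and 1.82 ± 0.94, nominal p over 0.05, without replicate 1). Sprr1a, an injury-induced protein, was 23.7, 20.1 and 30.5 normalized counts at 3 months and 94.1, 307, 15.5 and 42.2 at 12 months (log2 fold change 2.24 ± 1.28, nominal p over 0.05), and the peptide gene Npy was 15.3, 11.9 and 19.8 normalized counts at 3 months and 174, 229, 25.3 and 17.4 at 12 months (log2 fold change 2.84 ± 1.20, nominal p under 0.05, and 2.57 ± 1.26, nominal p over 0.05, without replicate 1). In all 3 genes replicates 3 and 4 were at or near the 3-month range. The axotomy list as a whole had 21 of 29 higher (median 0.18). Jun, a partner of Atf3, was lower at 4542, 4209 and 4121 normalized counts at 3 months and 3152, 2879, 3031 and 3951 at 12 months, with no overlap (log2 fold change -0.40 ± 0.12, nominal p under 0.05, and -0.23 ± 0.11, nominal p under 0.05, in females). Stat3 (3376 ± 429.5 and 3366 ± 153 at 3 and 12 months, mean ± SD) and Socs3 (34.7 ± 16.3 and 34.4 ± 7.98), which mediate cytokine signals, differed by less than the spread between libraries. Of the immediate early genes 17 of 24 were higher (median 0.17), and Egr4 was 8.41, 7.31 and 7.42 normalized counts at 3 months and 23.3, 34.4, 12.7 and 12.4 at 12 months and Nr4a2 18.3, 11.9 and 12.4 normalized counts at 3 months and 69.1, 39.9, 19.7 and 15.7 at 12 months, both highest in replicates 1 and 2. The log2 fold change of Nr4a2 was 1.35 ± 0.58 (nominal p under 0.05), and 0.84 ± 0.59 (nominal p over 0.05) without replicate 1. Markers of dorsal root ganglion neurons, which include Calca and Isl2, summed to 9973, 13037 and 11109 at 3 months and 37902, 27656, 8900.2 and 10556 at 12 months, and the sum moved with Calca. Of the 6 tested, 4 were higher and 2 lower (median 0.29), and 2 and 4 (median -0.17) without replicate 1. The list's ATP receptor P2rx3 and actin regulator Avil reached at most 47.8 and 32.8 counts, and 6 of its 12 genes, the sodium channels Scn10a and Scn11a and the heat receptor Trpv1 among them, were below the minimum mean count of 5.

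**Figure D3:**
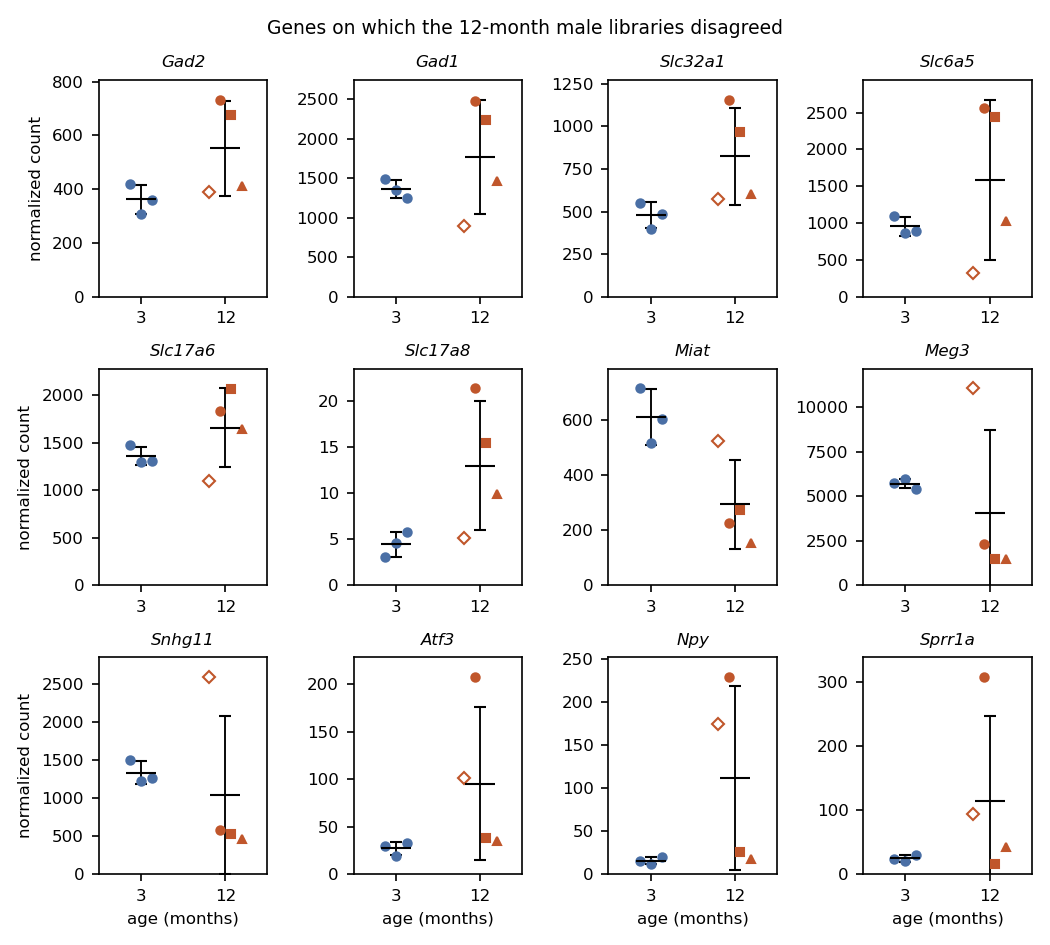
Normalized counts of interneuron markers, long noncoding RNAs and axotomy genes in the male libraries at 3 and 12 months, with the mean and SD of each group (axes start at 0 and cut off SD bars that reach below it). Replicate 1 of 12 months (open) is the lowest 12-month library for each interneuron marker and the highest for Miat, Meg3 and Snhg11. Atf3, Npy and Sprr1a are high in replicates 1 and 2.

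Microglial markers were higher in males at 12 months without passing the test, and their sum was highest in replicate 1. All 16 microglial markers had positive log2 fold changes (median 1.05, 0.58 without replicate 1), with 9 not overlapping between ages and 0 at an unadjusted p under 0.05. C1qa, a chain of the complement recognition protein C1q, was 48.2, 45.7 and 40.4 normalized counts at 3 months and 346, 114, 111 and 105 at 12 months, above the 3-month range throughout (log2 fold change 1.92 ± 1.12, nominal p over 0.05, and 1.30 ± 1.17 without replicate 1). Tyrobp, an adaptor of myeloid receptors, was 6.88, 5.48 and 6.59 normalized counts at 3 months and 48.4, 9.64, 18.3 and 16.5 at 12 months, a low level in every library (log2 fold change 1.85 ± 1.16). In females the microglial median was 2.85, and C1qa had a log2 fold change of 3.45 ± 0.99 (nominal p under 0.05). Its difference between the sexes was -1.54 ± 1.41 (nominal p over 0.05, adjusted p = 1 by edgeR). Apoe, the lipid carrier of astrocytes and microglia, was 1419, 1229 and 1409 normalized counts at 3 months and 10401, 1890.0, 2304 and 2296 at 12 months (log2 fold change 1.64 ± 0.85, nominal p over 0.05, and 0.68 ± 0.81 without replicate 1). The endosomal tetraspanin Cd63 was 335, 363 and 398 normalized counts at 3 months and 1087, 607, 532 and 524 at 12 months, above the 3-month range in every library (log2 fold change 0.91 ± 0.37, nominal p under 0.05, and 0.61 ± 0.36, nominal p over 0.05, without replicate 1). The protease inhibitor Serpinb1a was 58.1, 57.6 and 91.5 normalized counts at 3 months and 313, 103, 73.2 and 108 at 12 months and the intermediate filament Vim 168, 114 and 134 normalized counts at 3 months and 295, 238, 155 and 152 at 12 months, both overlapping between ages. The complement list had 21 of 30 higher (median 0.32), which became 15 of 30 at 0.03 without replicate 1, and C4b was 97.1, 77.7 and 73.3 normalized counts at 3 months and 359, 84.7, 142 and 137 at 12 months, highest in replicate 1 (log2 fold change 1.13 ± 0.52, nominal p under 0.05, and 0.54 ± 0.51, nominal p over 0.05, without it). TREM1 signaling genes had 24 higher and 20 lower (median 0.07).

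Among the other cell types, astrocyte markers had 13 of 13 higher (median 0.40, 0.25 without replicate 1) and oligodendrocyte markers 10 of 13 (0.28 and -0.01). Neutrophil markers had 10 of 10 higher (median 2.40, 1.48 without replicate 1), with sums of 246, 292 and 319.7 at 3 months and 1550.4, 452, 193 and 534 at 12 months. S100a8, a calcium-binding protein of neutrophils, was 6.88, 10.97 and 6.59 normalized counts at 3 months and 282, 50.3, 12.7 and 39.7 at 12 months (log2 fold change 3.57 ± 1.73, nominal p under 0.05, and 2.13 ± 1.78, nominal p over 0.05, without replicate 1). Erythroid markers had 7 of 7 higher (median 1.29), and skeletal muscle markers 12 of 12 (median 0.99, 0.93 without replicate 1). The muscle sums of 1145, 2133 and 1201 at 3 months and 3405, 3487, 2469.6 and 1939 at 12 months overlapped between ages. Most of each sum was Pvalb, described next, so the sums cannot be taken as muscle RNA alone. The muscle list was led by Myh7, slow myosin, at 189.6, 265 and 222 normalized counts at 3 months and 247, 288, 338 and 378 at 12 months (log2 fold change 0.47 ± 0.20, nominal p under 0.05), and Pvalb, a calcium buffer also made in neurons, at 858, 1461 and 807 normalized counts at 3 months and 2601, 2021, 2016 and 1148 at 12 months (log2 fold change 0.90 ± 0.43, and 0.73 ± 0.45, nominal p over 0.05, without replicate 1). Endothelial, pericyte, macrophage and precursor markers had medians between 0.23 and 0.39, and Schwann cell, meningeal, plasma cell, osteoblast, osteoclast and chondrocyte markers between -0.11 and 0.08. Without replicate 1 the endothelial median was 0.16, the pericyte and smooth muscle median 0.07 and the oligodendrocyte precursor median 0.07. Schwann cell markers went from 4 higher of 9 (median -0.04) to 1 of 9 (-0.20) without it, and meningeal fibroblast markers from 7 of 11 (0.04) to 4 of 11 (-0.33). Ependymal markers had a median of 0.46, which turned to -0.34 without replicate 1.

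**Figure D4:**
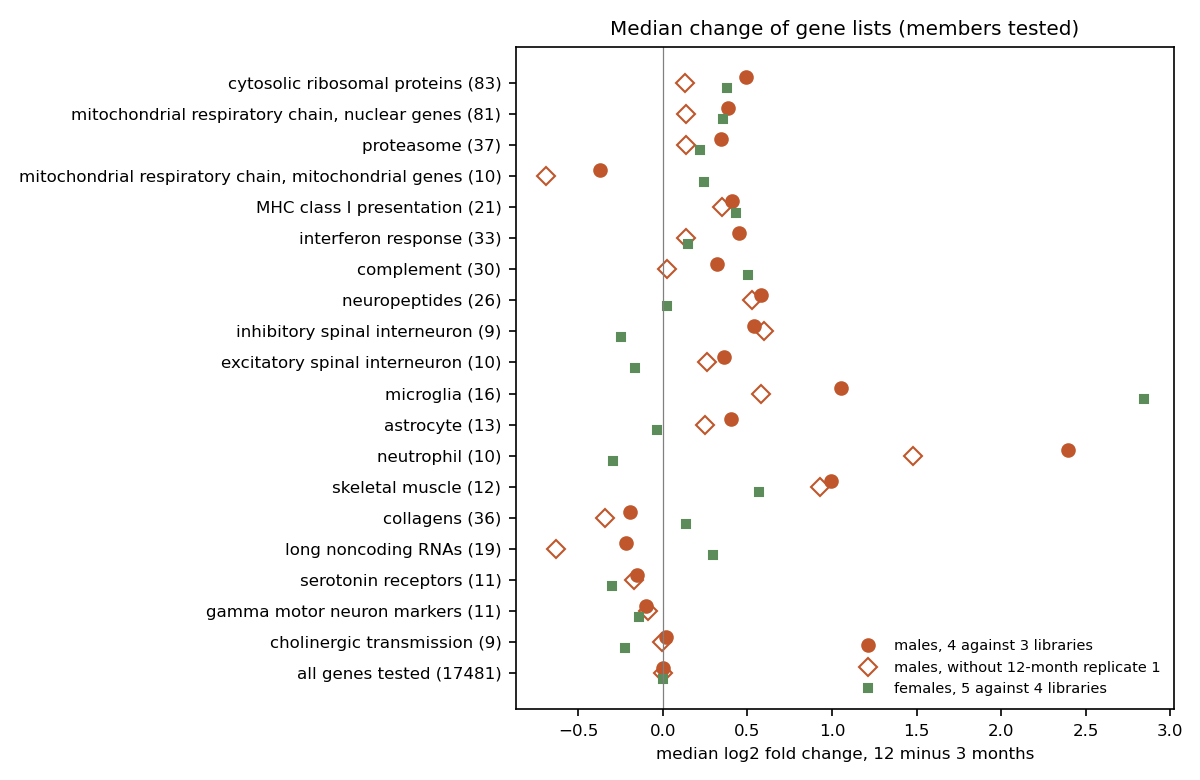
Median log2 fold change from 3 to 12 months over the tested members (number in brackets) of 19 gene lists and of all genes, for all male libraries (filled circles), for males without replicate 1 of 12 months (open diamonds) and for females (squares). Removing replicate 1 takes the ribosomal median from 0.49 to 0.13 and leaves those of the MHC class I, neuropeptide and inhibitory interneuron lists at 0.35, 0.53 and 0.60.

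Adhesion, matrix and signaling families were mixed. Of 54 clustered protocadherins, 25 were higher and 29 lower (median -0.14, 0.03 without replicate 1). At an unadjusted p under 0.05, 5 were higher and 1, Pcdhb16, lower (log2 fold change -0.72 ± 0.29, and -0.57 ± 0.31, nominal p over 0.05, without replicate 1). Besides Pcdhb3 these included Pcdhb10 at 69.6, 80.4 and 72.5 normalized counts at 3 months and 106, 107, 91.5 and 91.8 at 12 months (log2 fold change 0.42 ± 0.16), Pcdhb9 at 94.02, 74.9 and 111 normalized counts at 3 months and 72.6, 147, 155 and 148 at 12 months, where replicate 1 was lowest of all (log2 fold change 0.48 ± 0.20, and 0.69 ± 0.17, nominal p under 0.05, without it), and Pcdhb8 at 86.4, 63.1 and 53.6 normalized counts at 3 months and 82.9, 112, 99.9 and 139 at 12 months (log2 fold change 0.68 ± 0.28). Pcdhga6 was 58.1, 41.1 and 58.5 normalized counts at 3 months and 106, 88.1, 77.4 and 80.2 at 12 months (log2 fold change 0.74 ± 0.30, and 0.64 ± 0.32, nominal p over 0.05, without replicate 1), but genes of its cluster share their last exons and its count is uncertain. The Wnt pathway had 29 higher and 30 lower of 59. Beside the inhibitor Sfrp1, the ligand Wnt3 was higher, at 61.2, 72.2 and 65.1 normalized counts at 3 months and 115, 104, 81.6 and 110.00 at 12 months (log2 fold change 0.64 ± 0.22, nominal p under 0.05), and the ligand Wnt10a too, at 101, 93.2 and 101 normalized counts at 3 months and 131, 169, 124 and 135 at 12 months (log2 fold change 0.51 ± 0.23). Rspo2, a secreted enhancer of Wnt signals, was lower at 1810.1, 1546 and 1753 normalized counts at 3 months and 876, 1341, 1324 and 1559 at 12 months (log2 fold change -0.42 ± 0.17, and -0.27 ± 0.17, nominal p over 0.05, without replicate 1). Collagens had 13 higher and 23 lower of 36 (median -0.20), and 8 and 28 (-0.34) without replicate 1. Col26a1 was 13.8, 8.23 and 17.3 normalized counts at 3 months and 12.1, 4.82, 4.22 and 5.79 at 12 months, low counts in which replicates 2 to 4 lay below the 3-month range (log2 fold change -0.94 ± 0.40). Trophic factors and receptors had 16 higher and 23 lower of 39, and Vegfa, the vascular growth factor, was lower at 417, 361 and 409.5 normalized counts at 3 months and 257, 296, 352 and 302 at 12 months (log2 fold change -0.39 ± 0.18, nominal p under 0.05, and -0.37 ± 0.16, nominal p under 0.05, in females). Without replicate 1 the male value of Vegfa was -0.32 ± 0.20 (nominal p over 0.05). Plin4, a coat protein of lipid droplets, was among the 6 genes that the DESeq2 Wald test called. It was 4.59, 0.914 and 0.824 normalized counts at 3 months and 157, 48.2, 4.22 and 6.62 at 12 months, and its log2 fold change of 4.57 ± 1.16 came from replicates 1 and 2.

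Long noncoding RNAs, a list written after their values were seen, were lower in 3 of the 4 older libraries. Of 19 tested, 13 were lower (median -0.22), and all 19 were lower without replicate 1 (median -0.63), 8 of them at an unadjusted p under 0.05. Miat (chromosome 5, 112213228 to 112229395, GRCm38) was 714, 515 and 602 normalized counts at 3 months and 524, 226, 272 and 152 at 12 months, with replicate 1 inside the 3-month range (log2 fold change -1.06 ± 0.31, nominal p under 0.05, and -1.50 ± 0.30, nominal p under 0.05, without it). Meg3, an imprinted nuclear RNA, was 5728, 5987 and 5435 normalized counts at 3 months and 11056, 2310.0, 1454 and 1469.7 at 12 months (log2 fold change -0.49 ± 0.56, and -1.71 ± 0.48, nominal p under 0.05, without replicate 1). Snhg11 was 1504, 1226 and 1266 normalized counts at 3 months and 2589, 579, 522 and 466 at 12 months (log2 fold changes -0.36 ± 0.42 and -1.35 ± 0.31). The nuclear RNAs Malat1 and Neat1 had log2 fold changes of 0.18 ± 0.58 and -0.70 ± 0.46, which became -0.91 ± 0.51 and -1.24 ± 0.46 without replicate 1, so that of Malat1 turned its direction. Mir124a-1hg, host of a neuronal microRNA, was 91.7, 53.9 and 84.05 normalized counts at 3 months and 122, 38.6, 29.6 and 17.4 at 12 months (log2 fold change -0.56 ± 0.42, and -1.41 ± 0.37, nominal p under 0.05, without replicate 1). In females 12 of the 19 were higher (median 0.30).

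The change from 3 to 12 months was compared between the sexes by an interaction term in the same model. Here too edgeR called 0 genes (321, 1.84% of those tested, at an unadjusted p under 0.05, and 1 each by the DESeq2 Wald test and limma voom), and 583 had that p without replicate 1 of the 12-month males. At 3 months the male libraries had totals of at least 23288612 counts and the female ones of at most 17995911, so sex and depth cannot be told apart at that age. The smallest p among higher male changes belonged to Sema3c, a secreted guidance cue, Atf3, Serpinb9, an inhibitor of granzyme B, Tmem163, a zinc transporter of vesicles, and Wdr12. Sema3c was 1131, 964 and 1093 normalized counts at 3 months and 1176, 1387, 1195 and 1217 at 12 months in males and went from 1142 ± 99.3 to 919 ± 48.6 in females (difference of the log2 fold changes 0.54 ± 0.18, nominal p under 0.05). Atf3 went from 178 ± 292 to 66.6 ± 46.8 in females (difference 3.23 ± 1.12, nominal p under 0.05). Sprr1a, which overlapped between ages in males, went from 259 ± 496 to 65.4 ± 82.7 in females (difference 4.20 ± 1.64, nominal p under 0.05). For both genes the SD of the 3-month females exceeded their mean, and in males only replicates 1 and 2 were far above the 3-month range. These differences therefore rest on uneven libraries in both sexes. For Serpinb9 and Tmem163 the differences were 0.67 ± 0.23 and 0.82 ± 0.29. Among lower male changes, Nmrk1 went from 81.4 ± 2.85 to 103 ± 31.2 in females, opposite to the male direction (difference -1.23 ± 0.32, nominal p under 0.05). Arhgef25, Jakmip1, a microtubule-binding protein of neurons, Usp40, a deubiquitinase, and Rcor3, a corepressor, had differences of -0.44 ± 0.14, -0.27 ± 0.10, -0.86 ± 0.32 and -0.95 ± 0.36. The adjusted p of these 11 genes was 1 throughout by edgeR. For inhibitory interneuron genes the difference was 0.92 ± 0.34 for Gad2 (nominal p under 0.05) and 1.28 ± 0.62 for Slc6a5 (nominal p under 0.05), with an adjusted p of 1 for both.

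Levels at 18 and 24 months, from 5 male libraries each, stand beside these values without a test, because the 3-month libraries would be shared. Pcdhb3 was 137 ± 18.6, 238 ± 34.9, 281 ± 60.9 and 339 ± 28.1 normalized counts (mean ± SD) at 3, 12, 18 and 24 months. For Pdyn the means were 63.5 ± 9.39, 165 ± 54.3, 218 ± 61.97 and 289 ± 104. Both stayed above the 3-month level at each later age. Htr1b was 174 ± 19.7, 100.03 ± 28.9, 93.01 ± 11.9 and 61.03 ± 11.4, and Sfrp1 was 416 ± 4.95, 263 ± 28.8, 209.7 ± 37.9 and 263 ± 44.1, below the 3-month level at all later ages. Tap1 was 22.8 ± 2.98, 45.3 ± 13.3, 60.9 ± 11.4 and 86.1 ± 15.8. Other genes were closer to their 3-month level at the later ages: Pak6 was 1070.1 ± 25.4, 789.6 ± 77.9, 1004 ± 61.7 and 869.7 ± 48.6, and Nmrk1 was 135 ± 15.1, 72.9 ± 13.6, 112 ± 27.2 and 109.97 ± 22.9. Miat was 610.3 ± 99.9, 293 ± 162, 638 ± 118 and 548 ± 97.8.

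**Figure D5:**
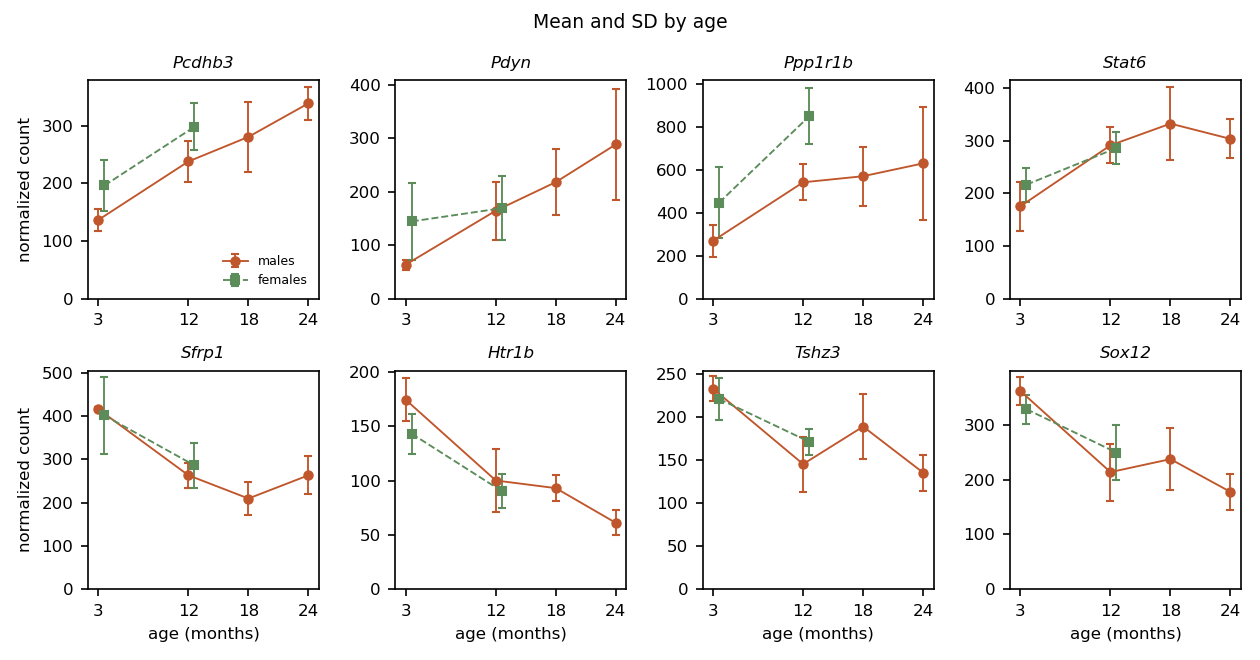
Mean normalized counts with SD of 8 genes in males at 3, 12, 18 and 24 months (circles, n = 3, 4, 5 and 5) and in females at 3 and 12 months (squares, drawn slightly to the right, n = 4 and 5). Pcdhb3, Pdyn, Ppp1r1b and Stat6 are above, and Sfrp1, Htr1b, Tshz3 and Sox12 below, their 3-month male mean at each later age.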

How the data were processed

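Chat-Cre;RiboTag spinal cord precipitates were sequenced by the study. Per the study's methods, the authors used ea-utils with Btrim for trimming and HISAT2 for alignment, and they deposited HTSeq counts per Ensembl gene (GRCm38, release 93), with problematic samples removed. Strandedness is not stated in the sources used here. The study's methods count each animal as 1 replicate. Groups came from the labels. The 24-month female group, a single library, was not analysed here.

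Raw counts of 31 libraries in 7 groups were fitted together (R 4.3.3, edgeR 4.0.16, TMM scaling, glmQLFit), which gave 24 residual degrees of freedom. Genes needed a mean count of 5. Values are TMM-normalized counts at a library size of 20952100. Named genes were the 12 of smallest p per direction with a mean count of 50 and no overlap between ages, the genes of smallest p for the sex difference, up to 4 per list and genes the study named, and some of these are not reported here. The members and lists were chosen with earlier results of these data known. Of 54232 identifiers, 54079 had a symbol in GENCODE M21 (GRCm38), the source of coordinates. Total counts set the counting error. The male comparison was also run on simulated counts for 17481 genes. It called 30% of 50 genes changed 1.5-fold, 80% at 2-fold, 90% at 3-fold and 100% at 4-fold. In the same run 4 unchanged genes were called. Apart from the changed genes, all simulated libraries had the same mean per gene, and none stood apart as replicate 1 did. Only genes averaging at least 50 counts were changed. These shares therefore do not give what could be found in the real libraries. Alternatives were the DESeq2 1.42.0 Wald test and size factors, limma 3.58.1 voom with quality weights, other filters, fits to the compared groups only, length offsets, a replicate block and each library left out.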

Additional observations from a re-analysis of the deposited data

Results flagged for a closer look

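Of 109 named genes, 19 had a 12-month male library whose gap to the nearest of the others, divided by the range of the 4, exceeded Dixon's critical value for 4 samples, where chance gives about 1 in 20. In 18 of them that library was replicate 1, and in Pdyn it was replicate 2, at 245 normalized counts against 127 to 144 in the other 3.

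Immune and glial genes were high in replicate 1, with C1qa at 346 against 105 to 114, Cd63 at 1087 against 524 to 607, Serpinb1a at 313 against 73.2 to 108, Apoe at 10401 against 1890 to 2304, Ifi27 at 6691 against 2457 to 2867 and S100a8 at 282 against 12.7 to 50.3 normalized counts in the other 3 libraries. Long noncoding RNAs were high as well, with Meg3 at 11056 against 1454 to 2310, Snhg11 at 2589 against 466 to 579 and Malat1 at 3848 against 522 to 879. The further genes that were high in it were Laptm4a at 7632 against 5375 to 5718, Ogfod3 at 269 against 159 to 172, Tubb3 at 152090 against 68948 to 81046, Psmc3 at 11710.4 against 6506 to 6577, Hspa8 at 134692 against 61360.3 to 65460.4 and Mcoln1 at 1655 against 1306 to 1327. Those low in it were Htr1b at 57.01 against 110.00 to 119, Pcdhb9 at 72.6 against 147 to 155 and Htr7 at 485 against 926 to 969.

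The summed normalized counts of 11 of 65 gene lists met the same criterion, each in replicate 1. For families of protein and energy metabolism and defence they were cytosolic ribosomal proteins at 611811 against 292451 to 303313, nuclear respiratory chain genes at 840487 against 498925 to 534288, mitochondrially encoded genes at 44224 against 19772 to 23409, proteasome genes at 248456 against 154881 to 161893, antioxidant genes at 146200 against 87689.5 to 95473 and interferon response genes at 8944 against 4528 to 5106. Among markers of other cell types they were astrocyte markers at 62069.8 against 38085 to 40149.6, microglial markers at 2570.4 against 1034 to 1239.7, macrophage markers at 190.02 against 106 to 119.8 and meningeal fibroblast markers at 4456 against 926 to 1407. The sum of the clustered protocadherins was low, 2048 against 2937 to 3086.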

How the results depend on the processing

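In males, edgeR called 0 genes with other size factors, robust empirical Bayes, both other filters, fits to the 2 groups, library total as a term and transcript length offsets. The DESeq2 Wald test called 6, 8 and 1 genes in males, in females and for the sex difference, and limma voom with quality weights called 319, 2 and 1, with 3221, 3583 and 1507 at an unadjusted p under 0.05. The cause of the larger voom count was not tested. In females that count was 1634 with no filter, 646 at a mean count of 50 and 1690 with only the groups compared. For the sex difference it was 904 with no filter and 166 at a mean count of 50. Leaving out single libraries gave 0 to 1 calls in males and 0 in females and for the sex difference, with 624 to 1465, 596 to 1662 and 235 to 583 genes at an unadjusted p under 0.05.

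The replicate numbers did not pair the male samples (correlation of deviations -0.20, -0.05 and -0.00). In females the same-number correlations were 0.51, -0.06, -0.05 and -0.30, so pairing there was not settled. As a replicate block the numbers gave 0 calls throughout. With the block, 754 genes had an unadjusted p under 0.05 in males, 894 in females and 472 for the sex difference. Genes higher at 12 months were 55.5% of the genes at that p in males, 63% with only the groups compared, 66.4% with the block and 46.3% in voom.

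Of 1841 values of 109 named genes under 17 alternatives, 15 turned direction, in 4 genes. The log2 fold change of Malat1, 0.18, was -0.74 in voom, -0.14 with the block and -0.91 to 0.46 with single libraries left out, the lowest without replicate 1 of the 12-month males. That of Slc18a3 was -0.23 to 0.00043 with single libraries left out, the highest without replicate 3 of the 3-month males. Socs3 was at -0.067 with the block, -0.071 with length offsets, and -0.28 to 0.41 with single libraries left out. Stat3 was at 0.0039 at a mean count of 50, 0.0059 with no filter, and -0.11 to 0.062 with single libraries left out. These genes had no direction beyond the spread between libraries. In at least 1 alternative 49 named genes passed the adjusted test. Of 1105 list medians, 41 moved beyond the spread between libraries. Depth limits genes of few counts, such as Plin4, Col26a1 and Slc17a8, whose values rest on few reads in some libraries.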
